A study of Mus musculus with 4 samples.

Results

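The interferon regulatory factor (IRF) family was followed at 8 genes, Irf1, Irf2, Irf3, Irf4, Irf5, Irf7, Irf8 and Irf9, on 4 Affymetrix mouse arrays. Members were chosen by gene symbol. Every probe set annotated to a single symbol, that of a member, was kept, which gave 14 probe sets of the 34958 with 1 symbol and of the 45101 on the array, and 8 of 18194 genes. Irf1, Irf2, Irf7 and Irf9 each had 1 probe set, and Irf3, Irf4, Irf5 and Irf8 had several.

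The arrays measured myeloid-derived suppressor cells (MDSCs), immature myeloid cells that dampen T cell responses. All 4 groups were fresh bone marrow cells of C57BL/6 mice that received a lentivirus and were then kept for 4 days with GM-CSF and IL6. The group kdNC received a control shRNA and kdLNC an shRNA against a long noncoding RNA that the labels call lncMDSC and the study calls lnc-C/EBPβ. The group oeNC received the control lentivirus for overexpression and oeLNC a lentivirus that carries the same RNA. Each group was 1 culture on 1 array, so every value below is a single measurement, no difference has a replicate error and no test across groups could be made. Whether marrow of several animals was pooled is not given in the sources used here.

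IRFs are transcription factors that share a DNA-binding domain and recognise GAAA repeats in the promoters of interferons and interferon-stimulated genes. Irf3, Irf5 and Irf7 act below sensors of foreign nucleic acid, Irf9 carries the signal of the type I interferon receptor to the nucleus, and Irf1 and Irf2 act on overlapping sites, the first as an activator and the second mostly as its antagonist. Irf4 and Irf8 are largely restricted to blood cells, where they bind DNA together with PU.1 and other partners, and Irf8 is known for favouring monocytes and dendritic cells over neutrophils when progenitors choose their fate.

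Several IRF genes are themselves targets of interferon signalling, so the promoters of the members were searched for the letters through which this signal is read. The promoters came from RefSeq on GRCm38.p6, where all 8 members were listed with 11 promoters, and the 250 bases before each start were searched on both strands. The gamma-activated site to which STAT dimers bind was written TTCNNNGAA, which reads the same on both strands. It was held by 3 of the 11 member promoters and by 7.02% of all 32851 promoters. The IRF-type element was written GAAANNGAAA and was held by 1 of the 11 and by 2.98% of all. The stretches with a match are shown because they separate Irf1, Irf2 and Irf8 from the other members on a feature that the arrays did not measure. Irf1 and Irf8 had 2 listed promoters each, and in both genes only 1 of them held a match. Capitals mark the matched letters, the strand is that of the gene, which is the plus strand for all of them, and both stretches of Irf2 overlap, as do both of Irf8.
Irf1, gamma-activated site, chr11:53769904-53769952: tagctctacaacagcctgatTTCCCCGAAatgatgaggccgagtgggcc
Irf2, gamma-activated site, chr8:46739501-46739549: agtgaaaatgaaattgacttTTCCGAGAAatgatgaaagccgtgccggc
Irf2, IRF-type element, chr8:46739495-46739533: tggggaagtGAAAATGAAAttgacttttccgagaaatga
Irf8, gamma-activated site farther from the start, chr8:120736167-120736215: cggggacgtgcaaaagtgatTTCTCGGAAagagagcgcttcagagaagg
Irf8, gamma-activated site nearer to the start, chr8:120736185-120736233: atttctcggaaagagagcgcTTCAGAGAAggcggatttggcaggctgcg
The match ended 81 bases before the annotated start of the matching promoter in Irf1. In Irf2 the gamma-activated site ended 215 bases and the IRF-type element 231 bases before it, and in Irf8 the 2 matches ended 162 and 144 bases before it. In the searched windows of Irf3, Irf4, Irf5, Irf7 and Irf9 these letters were not found, which says nothing of sites elsewhere or of sites with other letters.

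The labelled cell type was checked against markers. S100a8 and S100a9, calcium-binding proteins abundant in neutrophils and MDSCs, had log2 levels of 13.3 to 13.5 on all 4 arrays, and Cd14 and Csf1r, of monocytes, had 11.4 to 12.7. Of the other monocyte markers, Ccr2 and Cx3cr1 lay near the array medians, at 4.19 to 4.97 and 4.63 to 5.09. Ly6g, a defining marker of granulocytic MDSCs, was not analysed here. Medians of the arrays differed little (log2 4.17 to 4.24). The log2 ratio of the 3' to the 5' probe set of beta-actin was 1.61 in kdNC and 1.96 to 1.97 on the other arrays, and that of Gapdh was 0.51 to 0.69. Probe sets for 4 bacterial control RNAs were lower in oeLNC than in oeNC, by -0.66 (Lys), -0.43 (Dap), -0.39 (Thr) and -0.26 (Phe) on the log2 scale, each the mean of 3 probe sets, were between -0.19 and 0.23 in the knockdown pair, and were all higher in oeNC than in kdNC, by 0.16 to 0.57. Their part in the results below was not tested.

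Levels are log2 of the deposited intensity, and a difference is between 2 such levels. A probe set was counted as higher or lower at 1.5-fold, a log2 difference of 0.585, if 1 array of the pair or both had it above the 50th percentile of that array's values. As a yardstick, the SD of oeNC minus kdNC over the 500 probe sets nearest in level is given. It ran from 0.46 to 0.64 for the members and holds vector, culture and array together, so it is not a replicate error. More probe sets passed 1.5-fold between the control arrays than in either pair. A difference within 1 SD in a pair is therefore not shown to be ordinary for that pair. For the control difference the SD is the spread of that same comparison.

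In the knockdown pair the 14 member differences ran from -0.58 to 0.26, the lowest at a probe set below the filter. None of the 13 member probe sets above the filter was 1.5-fold higher or lower in kdLNC than in kdNC, where 3.47% of all probe sets were higher and 1.78% lower. With 1 value per gene, that of its brightest probe set, the counts were 0 and 0 of 8, against 2.36% and 1.96% of all genes. In the overexpression pair 0 of 14 member probe sets were higher and 2 were lower in oeLNC than in oeNC, 1 probe set of Irf8 and that of Irf9, against 3.85% and 7.28% of all probe sets. Per gene the counts were 0 and 2 of 8, against 3.93% and 5.38%. Between the control arrays 2 member probe sets were higher in oeNC than in kdNC and 1 was lower, against 10.7% and 13.9% of all probe sets, and per gene 1 and 0 of 8, against 9.22% and 12.2%. At 8 members, 1 gene is 12.5% of the family, so counts of 0, 1 or 2 cannot set the family apart from these background shares.

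**Figure D1:**
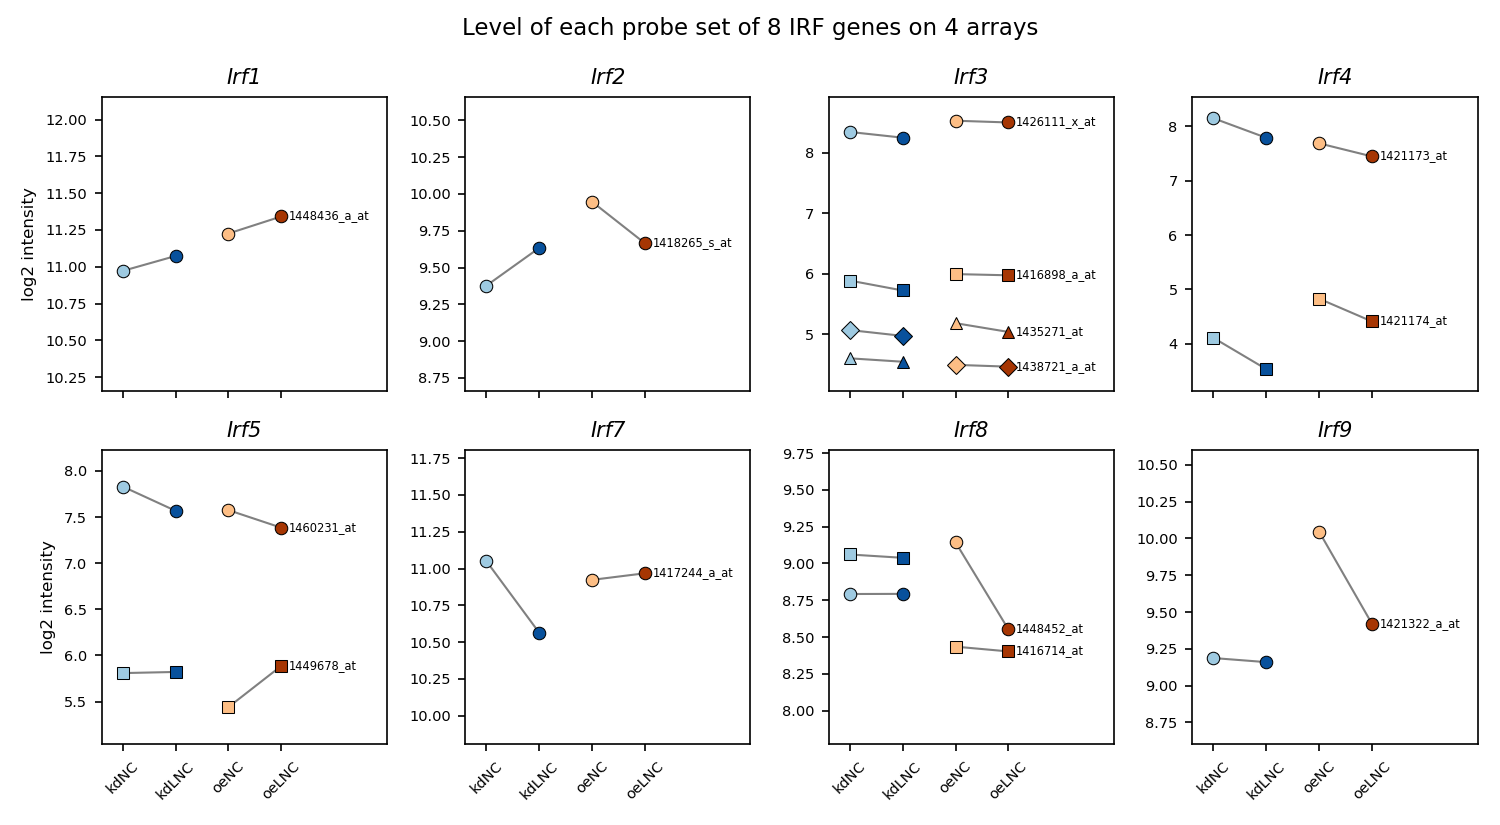
Log2 intensity (vertical axis) of each of the 14 probe sets of the 8 IRF genes on the 4 arrays (horizontal axis), 1 point per array, with a line joining the arrays of a pair and the probe set named at its right. Panels have their own vertical ranges. The Irf9 point of oeNC, at 10.05, stands above the other arrays (9.16 to 9.42), and the Irf8 probe sets place oeNC on opposite sides of kdNC, at 9.14 against 8.79 and at 8.43 against 9.06.

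Irf3 and Irf7 are kept inactive in the cytoplasm until the kinases Tbk1 and Ikbke phosphorylate them, after which they enter the nucleus and switch on the type I interferon genes. The brightest of the 4 probe sets of Irf3, 1426111_x_at, had log2 levels of 8.35 (kdNC), 8.25 (kdLNC), 8.53 (oeNC) and 8.50 (oeLNC). The next, 1416898_a_at, had 5.89, 5.73, 6.00 and 5.98 in the same order. The largest difference within a pair at these probe sets was -0.16. The dim probe sets 1435271_at (4.61, 4.55, 5.19 and 5.04) and 1438721_a_at (5.07, 4.98, 4.50 and 4.47) lay closer to the array medians. Over all 4 probe sets the knockdown difference of Irf3 was between -0.16 and -0.056 and the overexpression difference between -0.14 and -0.020, all below 0 and all within 1 SD. After quantile normalization and loess, the overexpression difference was above 0 at 1416898_a_at (0.074 and 0.040) and at 1426111_x_at (0.010 and 0.016). Between the control arrays both dim probe sets differed by about as much in opposite directions, by 0.58 and -0.57, which puts 1435271_at (0.581) just under the limit of 1.5-fold.

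Irf7 is made at low level in most cells and is raised by interferon itself, which makes it the amplifier of the response. Its log2 level was 11.05 (kdNC), 10.56 (kdLNC), 10.92 (oeNC) and 10.97 (oeLNC). The array of kdLNC was the lowest and the other 3 lay within 0.13. The knockdown difference of -0.49, or 1.40-fold lower, was the largest of any member's brightest probe set in that pair, at 0.94 SD, and the overexpression difference was 0.045. It was below 1.5-fold under every normalization tried and was -0.42 against the mean of both control arrays.

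Irf5 acts below Toll-like receptors and MyD88 and drives inflammatory cytokine genes in macrophages. Its brighter probe set, 1460231_at, had log2 levels of 7.83 (kdNC), 7.57 (kdLNC), 7.58 (oeNC) and 7.38 (oeLNC). The dimmer one, 1449678_at, had 5.81, 5.82, 5.44 and 5.89. They gave different pictures of the overexpression pair, with oeLNC lower by the first (-0.19) and higher by the second (0.45). In the knockdown pair the values were -0.26 and 0.012, and all of them lay within 1 SD.

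Irf9 is the DNA-binding subunit of ISGF3, the complex that type I interferon receptors send to the nucleus. Its log2 level was 9.19 (kdNC), 9.16 (kdLNC), 10.05 (oeNC) and 9.42 (oeLNC). The array of oeNC stood above the other 3. Irf9 was therefore 1.54-fold lower in oeLNC than in oeNC (log2 difference -0.63, 1.08 SD) and 1.81-fold higher in oeNC than in kdNC (0.86, 1.48 SD), with a knockdown difference of -0.028. Against kdNC, a comparison added after the values were seen, oeLNC was higher by 0.23. The lower value in oeLNC thus depends on which control array is used.

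Irf1 is induced by interferon gamma and activates genes of antigen presentation. Its log2 level was 10.97 (kdNC), 11.07 (kdLNC), 11.23 (oeNC) and 11.34 (oeLNC). These span 0.37, with differences of 0.10 in the knockdown pair, 0.12 in the overexpression pair and 0.25 between the control arrays, all within 1 SD. Irf2, which competes with Irf1 for its sites, had 9.38, 9.63, 9.95 and 9.67 on the same arrays. The difference of Irf2 was 0.26 in the knockdown pair and -0.28 in the overexpression pair, and oeNC was higher than kdNC by 0.57, just under 1.5-fold and 1.09 SD. Both perturbed arrays lay between the control arrays at Irf2.

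Irf8 was measured by a pair of probe sets for which the annotation lists the same source sequence. At 1448452_at the log2 levels were 8.79 (kdNC), 8.79 (kdLNC), 9.14 (oeNC) and 8.55 (oeLNC). At 1416714_at they were 9.06, 9.04, 8.43 and 8.40. Both placed the shRNA arrays within 0.022 of each other, and they disagreed on the overexpression pair, where oeLNC was 1.51-fold lower by the first and level with oeNC by the second. They also disagreed on the control arrays, at 0.35 and -0.63 (oeNC minus kdNC), so the difference between the probe sets lies mainly in the level of oeNC. Against kdNC the values of oeLNC were -0.24 at the first and -0.66 at the second, so the probe set that passed 1.5-fold was the other one. The value of 1.51-fold is the one nearest to the limit from inside, at 0.96 SD. After a further quantile normalization the differences were -0.54 for Irf8 and -0.56 for Irf9, and neither counted as lower. After loess within the pair Irf8 had -0.55 and Irf9 -0.59.

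Irf4 controls B cells, plasma cells and alternatively activated macrophages, and competes with Irf5 for MyD88. Its brighter probe set, 1421173_at, had log2 levels of 8.15 (kdNC), 7.79 (kdLNC), 7.69 (oeNC) and 7.45 (oeLNC). The dimmer one, 1421174_at, had 4.11, 3.53, 4.83 and 4.41, around the array medians, and was below the filter in the knockdown pair. Both were lower in kdLNC than in kdNC (-0.36 and -0.58) and in oeLNC than in oeNC (-0.24 and -0.42). Among the 4 members with several probe sets, Irf3 and Irf4 were those whose differences were below 0 in both pairs at every one of them. This held for the deposited values against the control of each pair. It did not hold for Irf3 after quantile normalization or loess, nor for oeLNC against kdNC at 1421174_at of Irf4 (0.30). The probe set 1421174_at was the only member probe set beyond 1 SD in the knockdown pair. Between the control arrays the probe sets differed in sign, at -0.46 and 0.72, and with oeNC in place of kdNC as control, kdLNC was higher by 0.10 at the brighter one and lower at the dimmer one (-1.30).

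**Figure D2:**
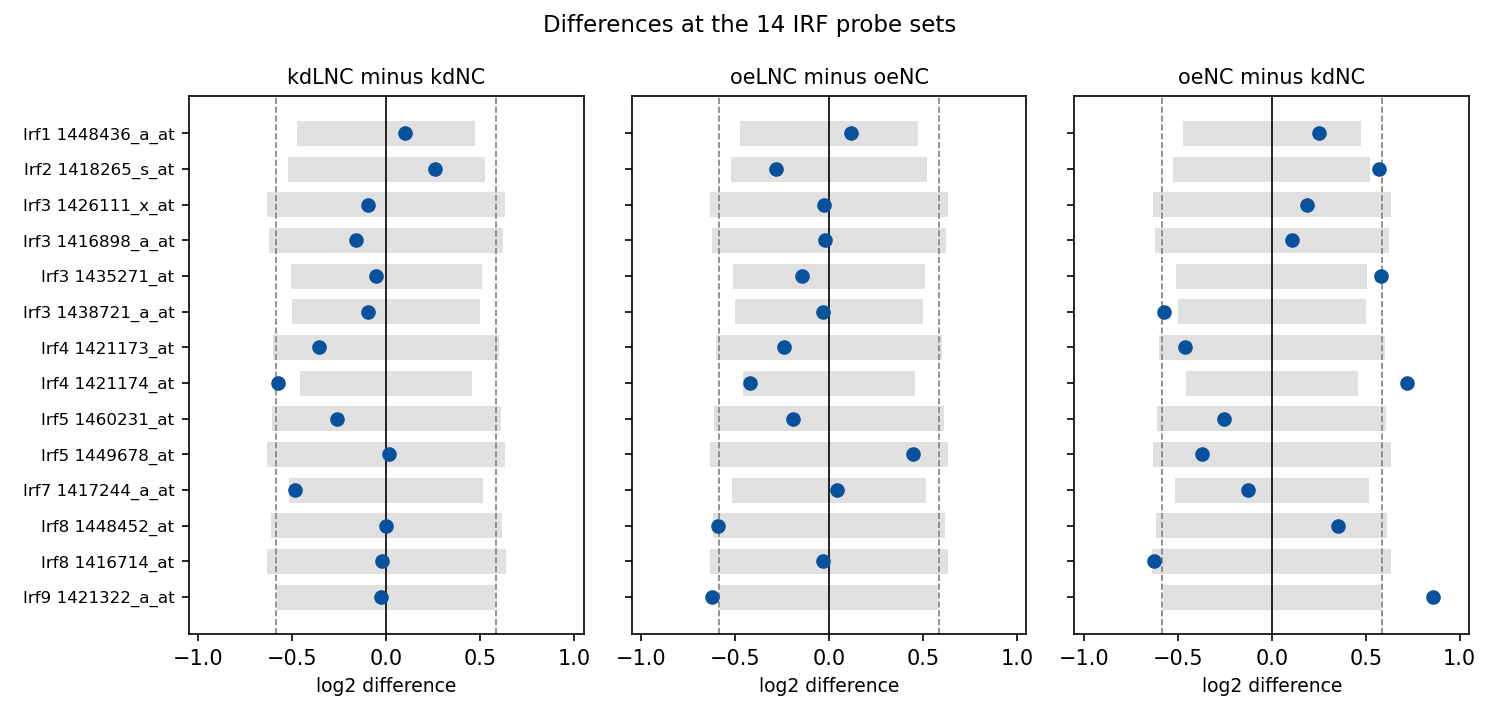
Log2 difference (horizontal axis) of the 14 IRF probe sets in the knockdown pair (kdLNC minus kdNC, left), the overexpression pair (oeLNC minus oeNC, middle) and between the controls (oeNC minus kdNC, right), 1 point per probe set. Grey bars span 1 SD of oeNC minus kdNC at that level to either side of 0, and dashed lines mark 1.5-fold; points beyond their bar number 1, 1 and 5 of 14 from left to right.

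Over all 14 probe sets the knockdown difference was below 0 at 10 and above 0 at 4, and its median over those above the filter was -0.056, beside -0.031 over all probe sets. The overexpression difference was below 0 at 11 and above at 3, with a median of -0.089 beside -0.036. The control difference was above 0 at 8 and below at 6, with a median of 0.15 beside -0.039. The shares of all probe sets above or below 0 were not counted. Absolute differences under 0.1 numbered 7 in the knockdown pair, 5 in the overexpression pair and 0 between the control arrays, so at each of the 14 probe sets the 2 control arrays stood farther apart than that. The highest of the 4 arrays was oeNC at 7 probe sets, kdNC at 5, oeLNC at 2 and kdLNC at 0. The lowest was kdLNC at 6, oeLNC at 5, kdNC at 2 and oeNC at 1.

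**Figure D3:**
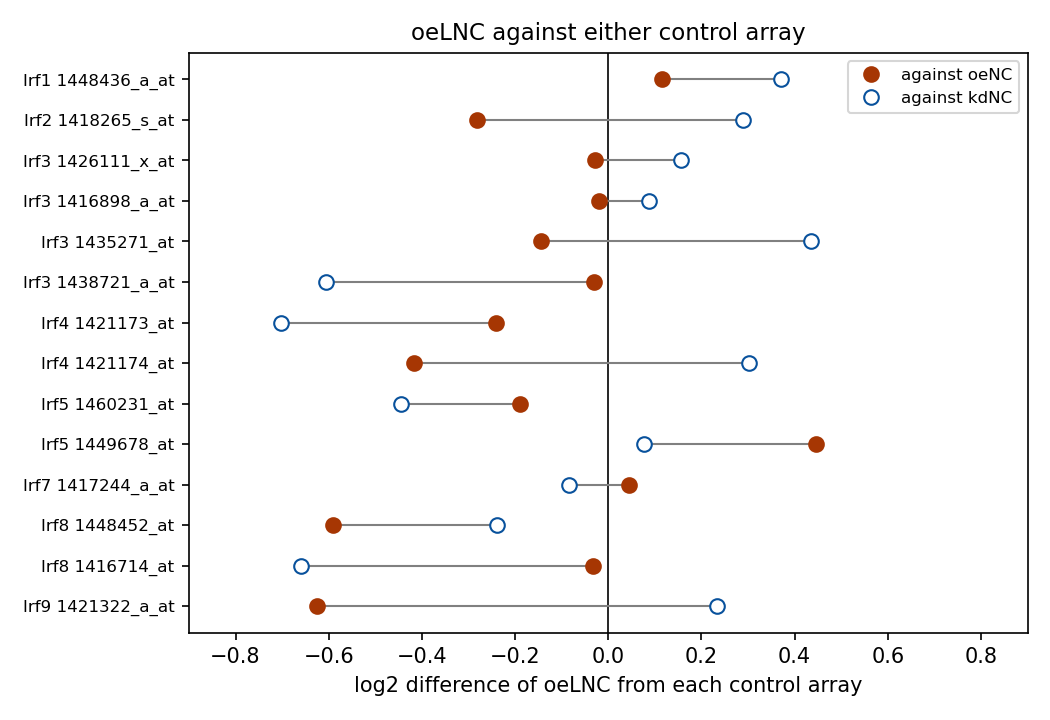
Log2 difference (horizontal axis) of oeLNC from oeNC (filled points) and from kdNC (open points) at each of the 14 IRF probe sets. The line joining both points is as long as the distance between the control arrays, and the points of Irf9 lie at -0.63 and 0.23.

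The spread over the 4 arrays was 0.27 to 1.30 among the member probe sets, and no member's brightest probe set spanned more than 1 log2 unit. How far the probe sets of 1 gene lay apart differed by member and by comparison. Those of Irf8 differed by 0.024 in the knockdown pair, 0.56 in the overexpression pair and 0.98 between the control arrays. Those of Irf3 spanned 0.11 in the knockdown pair, 0.12 in the overexpression pair and 1.16 between the control arrays, and those of Irf4 differed by 0.22, 0.18 and 1.18. Only those of Irf5 were farther apart in the overexpression pair (0.64) than between the controls (0.11).

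The genes around the family were taken from lists chosen with earlier results of these data known, each gene at its brightest probe set, and named genes are those with the largest differences of at least 1.5-fold. The median over all genes was -0.048 in the knockdown pair, -0.014 in the overexpression pair and -0.036 between the control arrays. Of all genes, 2.36% were 1.5-fold higher and 1.96% lower in the knockdown pair, and 3.93% and 5.38% in the overexpression pair. The shares of all genes above or below 0 were not counted. Of 22 sensors, adaptors and kinases upstream of Irf3, Irf5 and Irf7, 19 had a probe set. In the knockdown pair 0 of 17 above the filter were higher and 1 was lower, with a median of -0.14. In the overexpression pair 0 of 18 were higher and 1 was lower, with a median of 0.11. Tbk1 had a knockdown difference of 0.35 at its brightest probe set and 1.02 at its other one. Tlr3, an endosomal receptor for double-stranded RNA, had log2 levels of 6.15 (kdNC), 5.55 (kdLNC), 4.88 (oeNC) and 5.36 (oeLNC). Mavs, the mitochondrial adaptor of the RNA helicase sensors, had 5.78, 6.25, 6.88 and 5.60. It was lower in oeLNC than in oeNC at this probe set (-1.27) and at its other one (-0.31). As at Irf9, the array of oeNC was the highest at Mavs.

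Of 13 interferons, receptors and JAK-STAT genes, 12 had a probe set. None of the 11 above the filter in the knockdown pair and none of the 10 in the overexpression pair was 1.5-fold higher or lower, with medians of -0.30 and 0.061. The knockdown median was lower than that over all genes, and against the mean of both controls it was -0.15.

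Most listed targets of ISGF3, the complex that holds Irf9, had a lower level in kdLNC than in kdNC. Of 20 genes 18 had a probe set, and 16 of the 18 knockdown differences were below 0. The share of all genes below 0 was not counted, and their median was -0.048. By 1.5-fold 5 targets were lower and 0 higher, against 1.96% and 2.36% of all genes, and the median of the targets was -0.32. Mx1 and Mx2, antiviral GTPases, had log2 levels of 9.67 and 7.55 in kdNC and 8.91 and 6.87 in kdLNC. Bst2, or tetherin, which holds budding virus at the cell surface, had 10.27 and 9.55. Oasl1 (-0.68), a translational inhibitor of Irf7, and Ifit3 (-0.66) were the remaining ones, named here after their values were seen. Irf7, itself such a target, had a difference of -0.49 in this pair, and Irf9 -0.028.

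In the overexpression pair 2 of the 18 ISGF3 targets were higher and 0 lower, against 3.93% and 5.38% of all genes, with a median of 0.25. They were Ifit3 (0.59) and Ifit2 (1.14). Ifit2 had log2 levels of 11.61 (kdNC), 11.35 (kdLNC), 9.74 (oeNC) and 10.89 (oeLNC), so that oeNC stood below the other 3. In this pair 12 of the 18 targets were above 0 and 6, among them Mx1, Mx2 and Bst2, were below 0, as Irf9 was. Against the mean of both controls the median of the targets was -0.097 in the knockdown pair and 0.068 in the overexpression pair.

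All 19 listed targets of interferon gamma and Irf1 had a probe set. At the brightest probe set none was 1.5-fold different in the knockdown pair, with a median of 0.038. In the overexpression pair 2 were higher and 0 lower, against 3.93% and 5.38% of all genes, with a median of 0.23. Without regard to the filter, another probe set of Psmb8 had 0.77 in the knockdown and -0.69 in the overexpression pair. In the latter pair another one of Ciita had -1.02 and another one of Gbp2 0.77. Socs1, a feedback inhibitor of JAK kinases, had log2 levels of 7.61 (kdNC), 7.25 (kdLNC), 6.63 (oeNC) and 7.76 (oeLNC). Cxcl9, a chemokine for T cells, had 6.25, 6.63, 4.93 and 6.00. In both, oeNC was the lowest of the 4 arrays, and the overexpression difference of Cxcl9, 1.07, was -0.064 at its other probe set.

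All 9 listed DNA-binding partners of Irf4 and Irf8 had a probe set. None was 1.5-fold different in the knockdown pair, with a median of -0.020, and 1 was higher and 1 lower in the overexpression pair, with a median of -0.15. Batf2, an AP-1 factor that pairs with Irf1 and Irf8, had log2 levels of 7.62 (kdNC), 8.17 (kdLNC), 5.52 (oeNC) and 6.46 (oeLNC). Etv6, an ETS factor, had 7.30, 7.04, 8.44 and 7.74. At both genes the overexpression arrays lay together on one side of the shRNA arrays, and the second probe set of Etv6 had a difference of 0.11 in the overexpression pair and -1.17 between the control arrays, opposite to the first. Of 7 IRF-binding proteins and modifiers 6 had a probe set, and none was 1.5-fold different in the knockdown or the overexpression pair, with medians of -0.062 and -0.0093.

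Between the control arrays more genes passed 1.5-fold than in either pair, over all genes (9.22% higher and 12.2% lower) as in each of these 6 lists. Of the sensors, Mavs was higher in oeNC than in kdNC and Tlr3, Tlr7 and Ifih1 were lower, with a median of -0.23. Of the receptor and JAK-STAT genes, Ifngr1 and Ifngr2, the subunits of the interferon gamma receptor, were higher, Ifng was lower, and the median was -0.025. Among the ISGF3 targets 0 were higher and 6 lower, with a median of -0.43. Among the targets of interferon gamma and Irf1, Il15 and Nos2 were higher, Cxcl9, Psmb10, Casp1, Socs1 and Psmb8 were lower, and the median was -0.40. Of the partners, Etv6 was higher, Batf2, Spib, Ikzf1 and Batf3 were lower, and the median was -0.20. Of the modifiers only Irf2bpl was lower, with a median of -0.027. At another probe set the value was 0.36 for Psmb8, -0.0070 for Ikzf1, -0.0089 for Irf2bpl and -0.25 for Cxcl9. It was 0.26 for Mavs and 0.40 for Ifngr2. Tlr3 and Tlr7 were 1.5-fold lower at each of their probe sets. The genes of this paragraph were named after their values were seen, and these differences share their arrays with both pairs above.

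**Figure D4:**
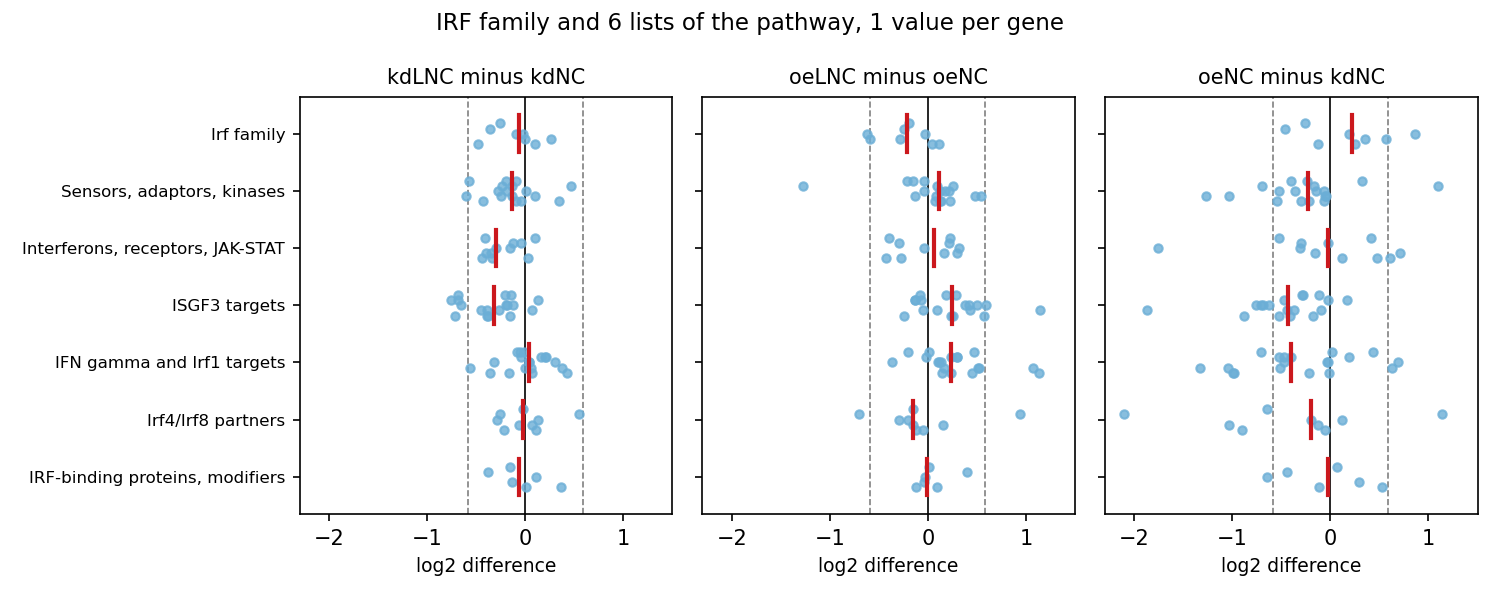
Log2 difference (horizontal axis) of the IRF family and 6 lists of its pathway in the knockdown pair (kdLNC minus kdNC, left), the overexpression pair (oeLNC minus oeNC, middle) and between the controls (oeNC minus kdNC, right), 1 point per gene above the filter. Red bars are medians, which for the ISGF3 targets lie at -0.32, 0.25 and -0.43, and dashed lines mark 1.5-fold.

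Markers of cell types that use particular IRFs were set beside these values. In such bulk cultures fewer cells of a type and less RNA per cell cannot be told apart. Plasmacytoid dendritic cells carry much Irf7 and Irf8, and all 5 of their listed markers were above the filter. Their summed intensity was 3078 (kdNC), 2498 (kdLNC), 1064 (oeNC) and 1366 (oeLNC). Siglech, the most specific of them, was lower in kdLNC than in kdNC (-0.98) and level in the overexpression pair (-0.0050), and Ccr9 had a knockdown difference of -1.06 at its brightest probe set and -1.06 to -0.056 over its 5 probe sets. Of the other markers, Ly6d, the brightest and the source of most of these sums, had a knockdown difference of -0.30, Cox6a2 had 0.073 and Pacsin1 0.23. Irf7 had -0.49 in this pair. Between the control arrays Ly6d differed by -1.74 and Siglech by -0.42. The sums thus follow mainly Ly6d and are not a level of these cells as such.

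B-lineage cells carry Irf4 and Irf8, and 6 of 7 listed markers were measured. Their summed intensity was 3675 (kdNC), 3694 (kdLNC), 1861 (oeNC) and 1767 (oeLNC), so both overexpression arrays were lower than both shRNA arrays. The probe sets 1421173_at of Irf4 and 1416714_at of Irf8 had the same order of the pairs, and the others of these genes did not. Neutrophil markers, of which 9 of 10 were measured, had a median of -1.04 in the knockdown pair, with 5 lower. The other 4, Lcn2, Mmp8, S100a8 and S100a9, were slightly above 0, at 0.047 to 0.12. The sums were 46344, 39304, 50562 and 47306 on the 4 arrays in the same order, with Lcn2, S100a8 and S100a9 as the brightest genes. Eosinophil markers had sums of 2328, 1245, 1196 and 1091, with 3 of the 4 above the filter lower in kdLNC.

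Monocyte markers, in whose lineage Irf8 acts, were measured for 9 of 10 and summed to 14458, 14525, 18189 and 17551. Their medians were -0.062 in the knockdown pair and -0.099 in the overexpression pair. The sums follow mainly the brightest genes, Ctss, Cd14 and Csf1r, and Cd14 differed by 0.92 between the control arrays. That difference was above 0 at 6 markers and below 0 at 3, Ccr2 (-0.59), Ly86 (-0.51) and Cx3cr1 (-0.47). For conventional dendritic cells 10 of 11 markers were measured and the sums were 3890, 3939, 2788 and 2519. Of the 10 measured markers Zbtb46, Xcr1, Cd209a and Mgl2 had log2 levels of at most 4.21 and were below the filter. The other 6, among them Flt3 at 4.92 to 5.42, were above it. Markers of T and NK cells (3 of 5 measured, sums of 72.7 to 92.7) and of erythroid cells (3 of 4, 101 to 130) were dim on every array. The part of these cell types in the values of the IRF genes was not tested.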

How the data were processed

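Total RNA of 4 cultures was hybridised to 1 Affymetrix array each. The authors deposited intensity values of 45101 probe sets on a linear scale, and RMA is named in the submitters' processing notes, with neither version nor settings. How far signals lay above background is unknown, and precision is limited by the number of arrays. Groups were taken from the labels. In the platform annotation 34958 probe sets carry 1 gene symbol, 932 carry several (0 of them with a member's) and 9211 carry none.

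Log2 levels and their differences were computed with Python 3.11.15, numpy 2.4.6, pandas 2.3.3 and scipy 1.17.1, loess with statsmodels 0.14.6, and plots with matplotlib 3.10.9. The methods name limma, which needs replicates and was not run on 1 array per group. Members and lists were chosen with earlier results of these data known. The text names every member at every probe set and, from each list, up to 4 of those past 1.5-fold in the knockdown or overexpression pair, the largest first. Genes most alike in pattern were to be named for members spanning over 1 log2 unit, and 0 members did. Alternatives were median centring, quantile normalization, loess, a filter at the 70th percentile or none, a 2-fold limit, exclusion of probe sets ending in _s_at or _x_at, other rules for genes with several probe sets, and other control arrays. The calculation was tested on simulated data.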

Additional observations from a re-analysis of the deposited data

How the results depend on the processing

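No paired analysis was possible because a group holds only 1 array, and for the same reason no array could be left out. Of the member differences past 1.5-fold only 1 changed sign under an alternative. It was that of Irf9 in oeLNC minus oeNC (-0.63), which was 0.23 with kdNC as control. The differences between the control arrays had no other control to be set against. Among differences of any size, 31 values at member probe sets changed sign under an alternative, as did 18 list medians and 2 family medians. Irf2 in the knockdown pair (0.26), for example, was -0.029 against the mean of both controls. Using the other control array was chosen after seeing the data. With it, the knockdown counts of member probe sets (0 higher, 0 lower) became 1 and 3. The overexpression counts (0 higher, 2 lower) became 0 and 3. These 3 were 1438721_a_at of Irf3, 1421173_at of Irf4 and 1416714_at of Irf8, and neither of the original 2 was among them. The knockdown median (-0.056) became -0.28 and the overexpression median (-0.089) 0.082. The 2 lower probe sets of the overexpression pair became 0 after quantile normalization, against the mean of both controls and at 2-fold, and 1 after loess and with the mean over a gene's probe sets. The overexpression median over the members was -0.22 with the brightest probe set of each gene.

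Between the control arrays, the 2 higher probe sets became 4 after median centring or loess, 0 at 2-fold, and 1 with the filter at the 70th percentile, the brightest probe set or the mean of a gene's probe sets. The 1 lower became 0 after quantile normalization or loess, at 2-fold and with either rule of 1 value per gene, and the median (0.15) was -0.010 without probe sets ending in _s_at or _x_at.

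Against the mean of both controls, list medians became -0.015 (knockdown) and -0.036 (overexpression) for the sensors, -0.15 and -0.040 for interferons and JAK-STAT, -0.097 and 0.068 for ISGF3 targets, and 0.20 and 0.12 for interferon gamma targets. With the mean of a gene's probe sets they were -0.13 and -0.21 for interferons and JAK-STAT and 0.13 (overexpression) for the modifiers, and between the controls -0.18 for interferon gamma targets, -0.34 for partners and -0.16 for modifiers. The limit for a moved value was 0.1 log2 units, by choice. The cause of these shifts was not tested.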
